A study of Homo sapiens with 12 samples.

Results

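The serine synthesis and folate one-carbon enzymes were followed across 4 stable lines of the human gastric cancer line SNU638. The set holds 10 of the 17303 genes in the deposited table: the serine synthesis enzymes PHGDH, PSAT1 and PSPH, the cytosolic folate enzymes SHMT1 and MTHFD1, the mitochondrial folate enzymes SHMT2, MTHFD2, MTHFD1L and ALDH1L2, and the mitochondrial enzyme PCK2. Members were matched by gene symbol, and all 10 were found and passed the expression filter. They were chosen with earlier comparisons of these lines with the control known. Their differences from the control are therefore given as a description, with no test. The tests below are of differences between the SKA2 hairpin lines and of other genes of the pathway. These tests and the lists of other genes were also chosen with earlier results of these data known. The p-values below are not independent of that choice.

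RNA was sequenced from 12 libraries, 3 per line. Hairpin 1 (sh-SKA2-1), hairpin 2 (sh-SKA2-2) and hairpin 3 (sh-SKA2-3) are short hairpin RNAs against SKA2, which encodes a subunit of the kinetochore complex that holds chromosomes to spindle microtubules. The comparison line carried a control hairpin (sh-control). All 4 lines had been infected with lentivirus and selected with puromycin, and the study asked which genes SKA2 regulates in gastric cancer cells. The labels give 1 line per hairpin and do not say how many infected cells each line descends from, so a hairpin and its line cannot be told apart.

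Serine is made from the glycolytic intermediate 3-phosphoglycerate, which PHGDH oxidises, PSAT1 transaminates and PSPH dephosphorylates. The hydroxymethyltransferases then split serine into glycine and a one-carbon unit carried on folate, in the cytosol through SHMT1 and in mitochondria through SHMT2. The units feed purine, thymidylate and methionine synthesis, and the mitochondrial arm exports them as formate in many proliferating cells. Several of these genes are known targets of the transcription factor ATF4, which is induced when amino acids run short or the endoplasmic reticulum is stressed.

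SKA2 was low in all 3 hairpin lines. It measured 26.0, 22.3 and 23.7 CPM (counts scaled to the library total, with TMM between libraries) in hairpin 1 cells, 23.3, 25.3 and 27.2 CPM in hairpin 2 cells and 24.9, 26.9 and 28.0 CPM in hairpin 3 cells, against 126, 119 and 117 CPM in the control. The differences in SKA2 between the 3 lines did not pass edgeR's quasi-likelihood test (adjusted p = 0.473 for hairpin 2 against 1, 0.243 for hairpin 3 against 1 and 0.452 for hairpin 3 against 2). Each library held 14693343 to 16739155 counts. The first control library and the first hairpin 3 library stood apart from the others of their lines, with a chi-square per degree of freedom of 25.4 to 52.2, against 1.69 to 6.76 for all other pairs within a line. Of the 9 gastric epithelial markers measured, 6 reached 1 CPM in every line, while the gastric markers CLDN18, TFF1 and MUC5AC stayed under 0.2 CPM. The summed level of the 9 was 2205 to 2288 CPM in hairpin 1 cells, 1027 to 1060 CPM in hairpin 2 cells and 2005 to 2694 CPM in hairpin 3 cells, against 2556 to 3623 CPM in the control, with the keratin KRT8 at 956, 316 and 962 CPM with hairpins 1, 2 and 3 and 1324 CPM in the control. Of 11 markers of other cell types 2 reached 1 CPM in every line (COL1A1 and ACTA2). Their summed level was 21.7 to 27.0 CPM in hairpin 1 cells, 15.2 to 17.4 CPM in hairpin 2 cells, 19.97 to 27.8 CPM in hairpin 3 cells and 31.4 to 40.8 CPM in the control, and the leukocyte marker PTPRC stayed under 0.2 CPM in every line.

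Promoters are shown for PCK2 and PSAT1, the 2 members whose levels lay farthest below the control with hairpin 2. They are also shown for the 2 folate enzymes whose windows hold a CACGTG motif, MTHFD1L and MTHFD1. Each window runs from 250 bases before to 50 bases after a gene start in RefSeq (GRCh38.p14), on the plus strand, at chr9:78296875-78297174 for PSAT1, chr14:24094061-24094360 for PCK2, chr14:64388103-64388402 for MTHFD1 and chr6:150866236-150866535 for MTHFD1L. Capitals mark matches to 3 motifs searched on both strands: TGATGNAA, the core of the element bound by ATF4 with C/EBP partners; CACGTG, the E-box bound by MYC; and TGACNNNGC, the core of the antioxidant response element.
PSAT1: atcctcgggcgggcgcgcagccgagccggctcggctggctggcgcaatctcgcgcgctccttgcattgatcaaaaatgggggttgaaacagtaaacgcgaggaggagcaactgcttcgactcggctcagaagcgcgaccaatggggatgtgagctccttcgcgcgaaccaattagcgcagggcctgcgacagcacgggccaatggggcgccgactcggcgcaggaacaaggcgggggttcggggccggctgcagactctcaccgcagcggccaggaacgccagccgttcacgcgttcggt
PCK2: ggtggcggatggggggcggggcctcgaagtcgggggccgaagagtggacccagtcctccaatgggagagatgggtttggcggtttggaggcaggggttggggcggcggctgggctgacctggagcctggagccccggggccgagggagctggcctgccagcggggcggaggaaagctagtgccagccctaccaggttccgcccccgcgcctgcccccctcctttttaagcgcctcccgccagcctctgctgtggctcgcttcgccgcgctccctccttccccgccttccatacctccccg
MTHFD1: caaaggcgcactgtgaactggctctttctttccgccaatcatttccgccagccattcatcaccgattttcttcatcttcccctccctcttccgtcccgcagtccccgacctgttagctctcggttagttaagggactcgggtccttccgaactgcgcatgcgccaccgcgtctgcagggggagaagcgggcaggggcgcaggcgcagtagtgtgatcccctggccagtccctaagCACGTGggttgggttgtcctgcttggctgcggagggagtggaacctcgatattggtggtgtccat
MTHFD1L: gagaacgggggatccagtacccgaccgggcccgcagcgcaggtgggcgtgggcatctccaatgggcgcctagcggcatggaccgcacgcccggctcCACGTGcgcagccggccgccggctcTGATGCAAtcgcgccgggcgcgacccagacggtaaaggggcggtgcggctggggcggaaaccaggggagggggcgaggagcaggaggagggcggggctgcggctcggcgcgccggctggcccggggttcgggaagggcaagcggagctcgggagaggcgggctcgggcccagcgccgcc
With positions counted from 0 at the annotated start, the MTHFD1L window held CACGTG at -154 to -149 and TGATGCAA at -129 to -122, and the MTHFD1 window held CACGTG at -15 to -10. MTHFD1L has 4 annotated starts, and these matches fall in 3 of its 4 windows. Of the 7 members with a window, 1 held TGATGNAA, 2 held CACGTG and 1 held TGACNNNGC (MTHFD2, on the minus strand at 6 to 14). Among all 34796 promoter windows of the same length the shares were 3.63%, 7.20% and 13.3%. No match was found in the windows of PSAT1, PCK2, PHGDH and SHMT1, which says only that these letters are not in these windows.

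The 3 enzymes of the serine synthesis pathway itself were low in every hairpin line. PHGDH, which catalyses the first and committing step, measured 111, 116 and 118 CPM in hairpin 1 cells, 59.8, 58.2 and 56.5 CPM in hairpin 2 cells and 113, 142 and 156 CPM in hairpin 3 cells, against 333, 422 and 484 CPM in the control. All 9 knockdown libraries lay below all 3 control libraries, and the hairpin 2 libraries were the lowest. The differences from the control were -1.85 ± 0.14, -2.83 ± 0.14 and -1.59 ± 0.14 on the log2 scale for hairpins 1, 2 and 3 (edgeR estimate ± SE, n = 3 per line). The first control library and the first hairpin 3 library, which stood apart above, held the least PHGDH of their lines. In bulk RNA, fewer cells that express a gene and less of its RNA per cell cannot be told apart.

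PSAT1, the aminotransferase of the second step, measured 140, 135 and 143 CPM in hairpin 1 cells, 49.2, 47.6 and 50.2 CPM in hairpin 2 cells and 151, 142 and 137 CPM in hairpin 3 cells, against 498, 485 and 432 CPM in the control. The hairpin 2 libraries formed a low group of their own, and hairpins 1 and 3 overlapped each other well below the control. The log2 differences were -1.76 ± 0.07, -3.27 ± 0.07 and -1.72 ± 0.07 for hairpins 1, 2 and 3 (SE). PSPH, the phosphatase that releases serine, lay nearer to the control. It measured 46.2, 50.1 and 47.2 CPM in hairpin 1 cells, 44.3, 43.7 and 43.6 CPM in hairpin 2 cells and 51.2, 55.2 and 55.6 CPM in hairpin 3 cells, against 91.5, 102 and 110 CPM in the control. Its 9 knockdown libraries lay within a narrow band below the control, with log2 differences of -1.08 ± 0.08, -1.21 ± 0.08 and -0.91 ± 0.08 (SE).

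**Figure D1:**
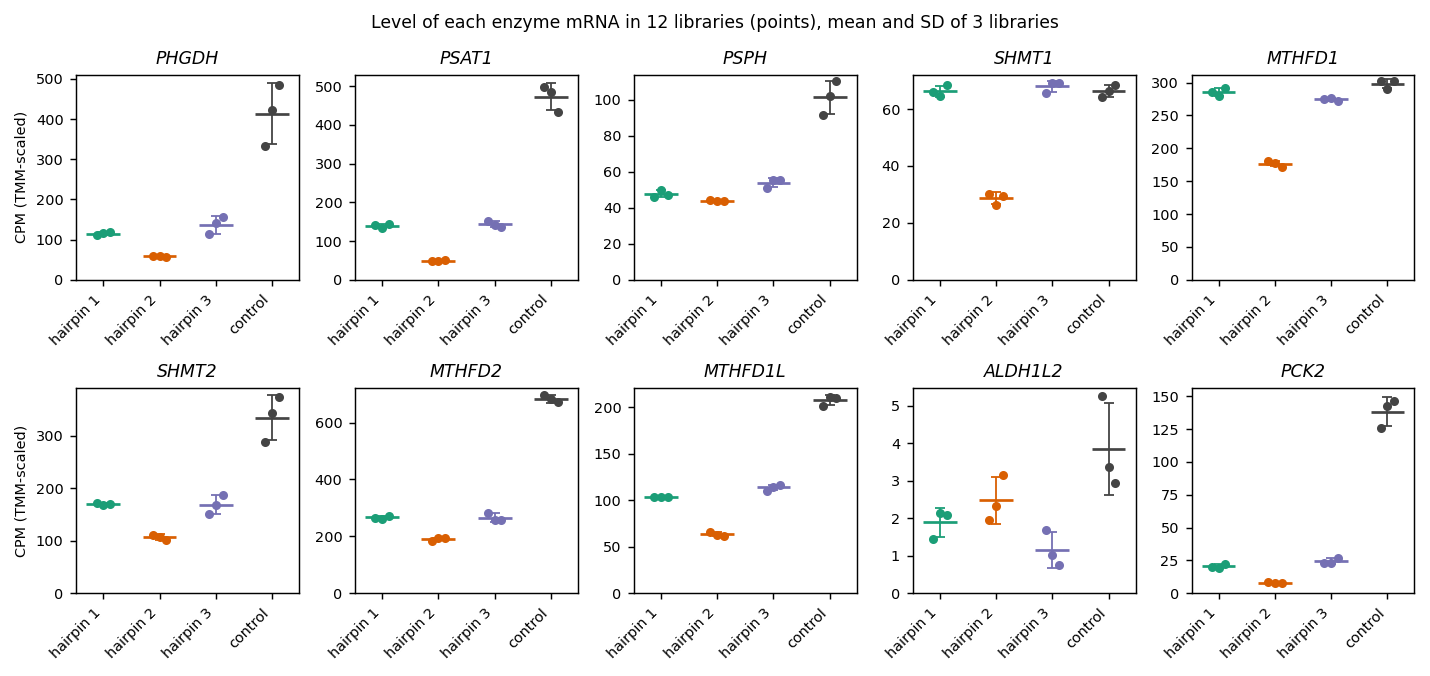
CPM of each of the 10 enzymes (vertical axes, each from 0) in the 12 libraries, as points by line (hairpin 1, hairpin 2, hairpin 3, control), with the mean and SD of 3 libraries as bars. For PSAT1 the hairpin 2 libraries sit between 47.6 and 50.2 CPM and the control libraries between 432 and 498 CPM. SHMT1 and MTHFD1 lie far below the control with hairpin 2 only.

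PCK2, the mitochondrial phosphoenolpyruvate carboxykinase, showed the widest differences of the set. It measured 19.8, 19.3 and 22.5 CPM in hairpin 1 cells, 8.66, 7.33 and 7.31 CPM in hairpin 2 cells and 22.8, 23.3 and 26.9 CPM in hairpin 3 cells, against 126, 143 and 147 CPM in the control. Every knockdown library was far below every control library, and the hairpin 2 mean was 94.4% below the control mean. The log2 differences were -2.75 ± 0.10, -4.15 ± 0.11 and -2.51 ± 0.10 for hairpins 1, 2 and 3 (SE). PCK2 can supply phosphoenolpyruvate and, from it, the 3-phosphoglycerate that PHGDH uses. The gene lies on chromosome 14 from 24094053 to 24110598 (GRCh38, GENCODE v29) inside the span of NRL on the other strand, and reads of the pair cannot be told apart in an unstranded library. NRL was counted at 1.14, 0.984 and 1.21 CPM with hairpins 1, 2 and 3 and at 2.96 CPM in the control.

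The mitochondrial folate enzymes were low with every hairpin, except that ALDH1L2 overlapped the control with hairpin 2. SHMT2, which moves the one-carbon unit of serine to folate in mitochondria, measured 171, 167 and 170 CPM in hairpin 1 cells, 112, 107 and 101 CPM in hairpin 2 cells and 150, 169 and 187 CPM in hairpin 3 cells, against 289, 343 and 373 CPM in the control. Its log2 differences were -0.98 ± 0.10, -1.65 ± 0.10 and -0.99 ± 0.10 (SE), with no overlap with the control. MTHFD2, the mitochondrial dehydrogenase and cyclohydrolase, had the highest level per transcript length of the set in every line. It measured 266, 261 and 273 CPM in hairpin 1 cells, 185, 193 and 194 CPM in hairpin 2 cells and 282, 256 and 259 CPM in hairpin 3 cells, against 697, 682 and 671 CPM in the control. All knockdown libraries were well below the control libraries, with log2 differences of -1.36 ± 0.06, -1.84 ± 0.06 and -1.36 ± 0.06 (SE).

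MTHFD1L, the mitochondrial synthetase that releases formate, measured 103 CPM in all 3 libraries with hairpin 1, 66.1, 62.3 and 61.6 CPM in hairpin 2 cells and 110, 114 and 116 CPM in hairpin 3 cells, against 201, 211 and 210 CPM in the control. The 4 lines formed 4 separate bands, with hairpin 2 the lowest and the control the highest. The log2 differences were -1.01 ± 0.06, -1.71 ± 0.06 and -0.87 ± 0.06 (SE). ALDH1L2, which burns the one-carbon unit of 10-formyltetrahydrofolate to carbon dioxide in mitochondria, was scarce. It measured 1.44, 2.14 and 2.09 CPM in hairpin 1 cells, 1.95, 2.32 and 3.16 CPM in hairpin 2 cells and 1.69, 1.01 and 0.759 CPM in hairpin 3 cells, against 5.26, 3.36 and 2.93 CPM in the control. Between 12 and 83 counts stand behind each of these values, and the hairpin 2 libraries overlapped the control. Its log2 differences were -1.02 ± 0.30, -0.64 ± 0.29 and -1.74 ± 0.32 (SE), and without the first control library the value for hairpin 2 was -0.34.

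The cytosolic enzymes did not share this pattern. SHMT1, the cytosolic hydroxymethyltransferase, measured 65.8, 64.6 and 68.4 CPM in hairpin 1 cells, 30.3, 26.4 and 29.3 CPM in hairpin 2 cells and 65.7, 69.2 and 69.1 CPM in hairpin 3 cells, against 64.4, 66.3 and 68.6 CPM in the control. Hairpins 1 and 3 overlapped the control, and hairpin 2 lay below all other libraries. MTHFD1, the trifunctional cytosolic enzyme that takes up formate, measured 285, 280 and 292 CPM in hairpin 1 cells, 181, 177 and 172 CPM in hairpin 2 cells and 275, 277 and 272 CPM in hairpin 3 cells, against 302, 290 and 303 CPM in the control. Hairpin 1 overlapped the control, hairpin 3 lay just below it and hairpin 2 far below it. The log2 differences of MTHFD1 were -0.06 ± 0.05, -0.76 ± 0.05 and -0.12 ± 0.05 (SE). Those of SHMT1 were -0.0033 ± 0.07, -1.21 ± 0.07 and 0.03 ± 0.07 (SE).

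The sign of the small cytosolic values depended on the scale. On TPM, the deposited measure of transcript copies corrected for length and scaled to an equal total per library, the median of all tested genes shifted by 0.29 with hairpin 1, 0.33 with hairpin 2 and 0.12 with hairpin 3 (log2). On that scale the differences of MTHFD1 were 0.31, -0.32 and 0.04 and those of SHMT1 were 0.37, -0.75 and 0.19 for hairpins 1, 2 and 3. Both remained negative with hairpin 2 on either scale. With offsets for gene length and GC content MTHFD1 was -0.42, -1.22 and -0.27 and SHMT1 was 0.21, -0.95 and 0.16. The opposite-strand neighbours SMCR8 (SHMT1) and ZBTB25 (MTHFD1) share 196 and 14352 bp with these genes. SMCR8 measured 108, 190 and 80.1 CPM with hairpins 1, 2 and 3 and 52.7 CPM in the control, and ZBTB25 measured 45.2, 47.5 and 35.3 CPM with the hairpins and 28.9 CPM in the control.

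By edgeR's rule for a called gene (Benjamini-Hochberg adjusted p under 0.05 over all 12868 tested genes), 8 members were lower with hairpin 1, 9 with hairpin 2 and 8 with hairpin 3, and 0 were higher. The background of lower calls over all tested genes was 31.5% with hairpin 1, 37.8% with hairpin 2 and 24.0% with hairpin 3. The members were chosen on these contrasts, so nothing is read from their counts. The median log2 difference of the 10 members was -1.05, -1.68 and -1.18 for hairpins 1, 2 and 3, beside 0.01, -0.02 and 0.01 for all tested genes. For 7 members, all except SHMT1, MTHFD1 and ALDH1L2, all 9 knockdown libraries lay below all 3 control libraries. The share of all tested genes separated in this way was not counted, so nothing is read from that number. The 3 comparisons share the same control libraries.

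**Figure D2:**
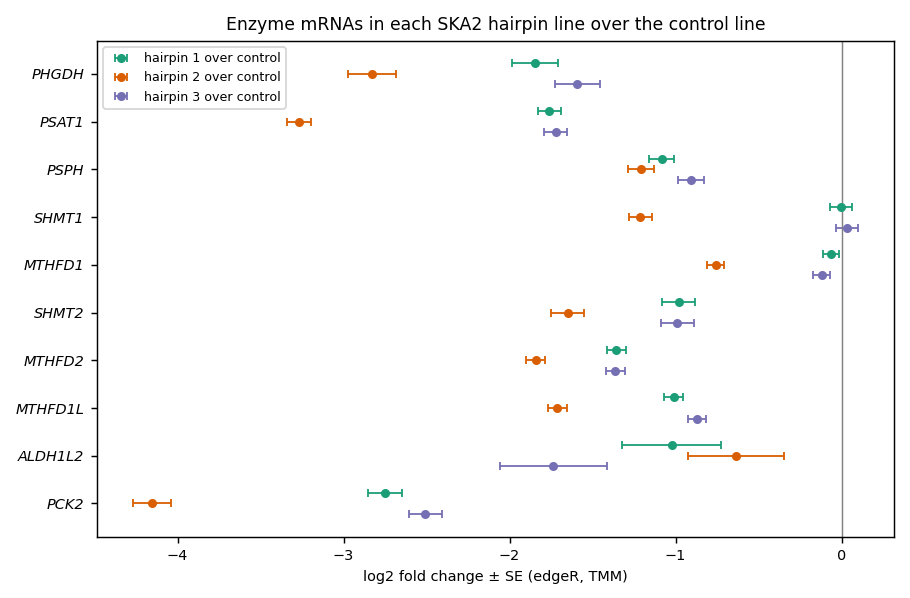
Log2 difference from the control line (horizontal axis, edgeR estimate with SE as bars) for each of the 10 enzymes (rows) with hairpin 1, hairpin 2 and hairpin 3. PCK2 reaches -4.15 and PSAT1 -3.27 with hairpin 2, and SHMT1 and MTHFD1 lie near 0 with hairpins 1 and 3.

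Levels were compared between enzymes on the TPM scale. In the control the order was MTHFD2 (427 ± 51.2 TPM), PHGDH (368 ± 24.9), PSAT1 (355 ± 67.3), SHMT2 (254 ± 2.16), MTHFD1 (149 ± 19.8), MTHFD1L (112 ± 8.54), PCK2 (105 ± 4.90), PSPH (79.7 ± 1.66), SHMT1 (43.0 ± 3.99) and ALDH1L2 (0.823 ± 0.384) (SD, n = 3). The TPM ranges of PHGDH, PSAT1 and MTHFD2 ran into each other, as did those of MTHFD1L and PCK2. By its mean MTHFD1 stood behind MTHFD2 alone in each hairpin line and behind MTHFD2, PHGDH, PSAT1 and SHMT2 in the control, though with hairpin 3 its range overlapped those of SHMT2, PHGDH and PSAT1. It was at 185 ± 2.18 TPM with hairpin 1, 119 ± 1.23 TPM with hairpin 2 and 153 ± 16.2 TPM with hairpin 3 (SD, n = 3). PCK2 stood above PSPH and SHMT1 in the control and below both in each hairpin line, at 20.2 ± 1.58, 7.98 ± 0.552 and 20.5 ± 1.22 TPM with hairpins 1, 2 and 3. The summed level of the 10 mRNAs was 1032 ± 8.60 TPM with hairpin 1, 639 ± 16.5 TPM with hairpin 2 and 928 ± 62.3 TPM with hairpin 3, against 1894 ± 130 TPM in the control (SD, n = 3). These sums were 54.5%, 33.7% and 49.0% of the control sum.

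Ratios within a library do not depend on how libraries are scaled, and they describe the balance between mitochondrial and cytosolic partners. They can still shift with length and GC trends that differ between libraries. With offsets for these the hairpin 1 log2 difference from the control moved from -0.06 to -0.42 for MTHFD1 and from -0.98 to -0.75 for SHMT2. SHMT2 was present at 3.08, 3.06 and 2.96 TPM per TPM of SHMT1 with hairpin 1, 4.35, 4.78 and 4.07 with hairpin 2 and 2.70, 2.90 and 3.18 with hairpin 3, against 5.31, 6.10 and 6.44 in the control. All 9 knockdown libraries lay below the control, with hairpin 2, where SHMT1 was low too, nearest to it. The ratio of MTHFD1L to MTHFD1 averaged 0.390 ± 0.0124, 0.373 ± 0.0157 and 0.445 ± 0.0169 with hairpins 1, 2 and 3, against 0.751 ± 0.0399 in the control (SD, n = 3). The ratio of MTHFD2 to MTHFD1 averaged 1.15 ± 0.0149, 1.38 ± 0.0933 and 1.23 ± 0.0523 with the hairpins, against 2.86 ± 0.0707 in the control. For both ratios every knockdown library was below every control library. These ratios are built from values that chose the members and carry no test.

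Along the serine pathway the 3 steps kept different proportions. PSPH per PHGDH averaged 0.359 ± 0.0148 with hairpin 1, 0.645 ± 0.0148 with hairpin 2 and 0.345 ± 0.0397 with hairpin 3, against 0.217 ± 0.0191 in the control (SD, n = 3, TPM ratio). All knockdown libraries were above the control libraries, and hairpin 2 was above all others. PSAT1 per PHGDH was 1.05, 0.966 and 1.00 with hairpin 1, 0.683, 0.676 and 0.738 with hairpin 2 and 1.11, 0.825 and 0.725 with hairpin 3, against 1.24, 0.950 and 0.739 in the control. This ratio spread widely within the control and hairpin 3 lines, where the first library of each, the one that stood apart, had the highest value. Its groups overlapped, except that the hairpin 2 libraries lay below those of hairpin 1 and just below the lowest control library.

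**Figure D3:**
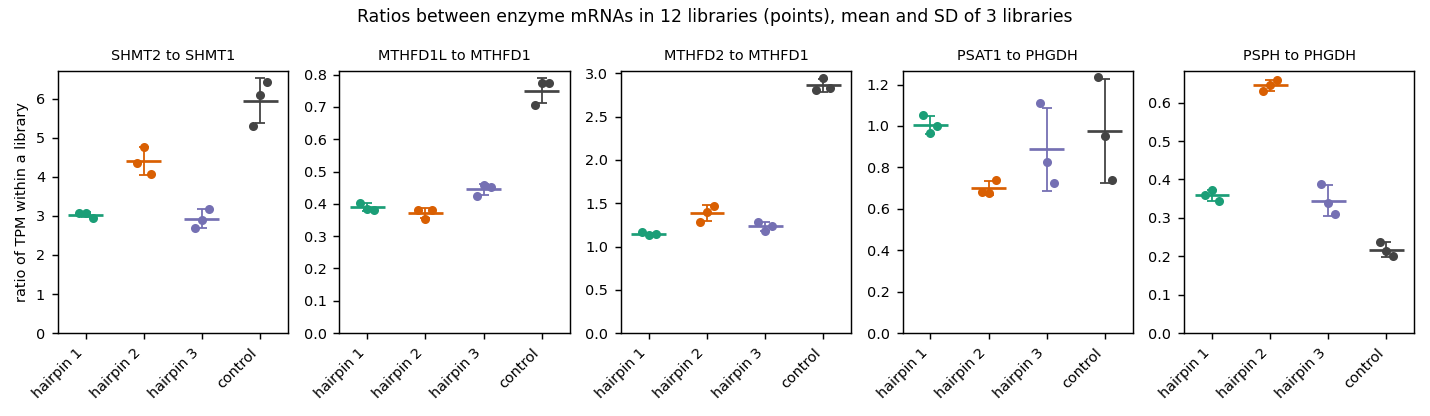
Ratio of TPM within a library (vertical axes, each from 0) for 5 pairs of enzymes, as points for 12 libraries by line (hairpin 1, hairpin 2, hairpin 3, control), with the mean and SD of 3 libraries. The ratios of mitochondrial to cytosolic enzymes are lower in all 9 knockdown libraries than in the control (SHMT2 to SHMT1: 3.03, 4.40 and 2.92 against 5.95), and PSPH to PHGDH is higher.

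Differences between hairpin lines set levels of knockdown cells against each other, while their p-values use a spread estimated over all 12 libraries, control included. Mean SKA2 lay between 24.0 and 26.6 CPM in these lines. With hairpin 2 against hairpin 1, 8 of the 10 members were lower by edgeR's test and 0 rose, beside a background of 29.4% of tested genes lower and 28.2% higher. PSAT1 fell by 1.51 ± 0.07 on the log2 scale (49.0 CPM in hairpin 2 cells and 139 CPM in hairpin 1 cells, adjusted p = 1.9e-08). PCK2 fell by 1.40 ± 0.11 (7.77 CPM in hairpin 2 cells and 20.5 CPM in hairpin 1 cells, adjusted p = 9.1e-07), and SHMT1 by 1.21 ± 0.07 (28.7 CPM in hairpin 2 cells and 66.3 CPM in hairpin 1 cells, adjusted p = 7.45e-08). PHGDH fell by 0.98 ± 0.14 (58.2 CPM in hairpin 2 cells and 115 CPM in hairpin 1 cells, adjusted p = 8.31e-05). In every one of these genes the 3 hairpin 2 libraries were below the 3 hairpin 1 libraries. How many of all tested genes separate in this way was not counted, so nothing is read from this. The falls of MTHFD1L, MTHFD1, SHMT2 and MTHFD2 were smaller, at 0.70 ± 0.06, 0.69 ± 0.05, 0.67 ± 0.10 and 0.49 ± 0.06 (adjusted p from 5.47e-07 to 0.000138 in edgeR). PSPH (-0.12 ± 0.08, adjusted p = 0.185) and ALDH1L2 (0.39 ± 0.32, adjusted p = 0.315) did not pass edgeR's test. The median over the 10 members was -0.70, beside -0.01 for all tested genes. The summed level of the gastric epithelial markers was low in the same line, as given above, and its part in these differences was not tested.

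With hairpin 3 against hairpin 2, 9 members rose and 1 fell, beside a background of 33.4% higher and 31.9% lower. This comparison shares the hairpin 2 libraries with the one before. The rises were 1.65 ± 0.11 for PCK2, 1.55 ± 0.07 for PSAT1, 1.25 ± 0.07 for SHMT1 and 1.24 ± 0.14 for PHGDH (adjusted p from 1.57e-08 to 1.22e-05 in edgeR). MTHFD1L rose by 0.84 ± 0.06, SHMT2 by 0.66 ± 0.10, MTHFD1 by 0.64 ± 0.05 and MTHFD2 by 0.48 ± 0.06 (adjusted p from 2.27e-07 to 0.000134). PSPH rose by 0.30 ± 0.08 (54.0 CPM in hairpin 3 cells and 43.9 CPM in hairpin 2 cells, adjusted p = 0.00479). ALDH1L2 fell by 1.10 ± 0.34 (1.15 CPM in hairpin 3 cells and 2.48 CPM in hairpin 2 cells, adjusted p = 0.0142). Libraries did not overlap for any member, but the share of all tested genes without overlap was not counted, so nothing is read from this. On TPM, which shifted the all-gene median by -0.22, PSPH (0.03) and MTHFD2 (0.19) were no longer called, and PSPH was also lost with length and GC offsets (0.11). ALDH1L2 was lost without the third hairpin 2 library (-0.89) or the third hairpin 3 library (-0.87).

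With hairpin 3 against hairpin 1, 0 of the 10 members passed edgeR's test, beside a background of 4.70% of tested genes lower and 4.75% higher. DESeq2 also called 0. In edgeR 3 of the 10 members (PSPH, MTHFD1L and PCK2) had an unadjusted p under 0.05, beside 4044 of all 12868 tested genes. The estimates ran from -0.71 ± 0.36 for ALDH1L2 (adjusted p = 0.191) to 0.25 ± 0.13 for PHGDH (adjusted p = 0.215), and PCK2 was at 0.25 ± 0.10 (adjusted p = 0.128). MTHFD1L (0.14 ± 0.06, adjusted p = 0.117) was at 110 to 116 CPM in hairpin 3 cells and at 103 CPM in hairpin 1 cells, without overlap, and turned to -0.08 on TPM. Without the first hairpin 3 library, which stood apart, 3 members were higher with hairpin 3 (PHGDH 0.39, PCK2 0.30, MTHFD1L 0.18) and ALDH1L2 was lower (-1.07), beside a background of 19.6% higher and 21.3% lower. Leaving out the first control library as well, a choice made after seeing the data, gave 4 higher (PSPH in addition) and 1 lower, beside 28.4% higher and 29.1% lower over all genes.

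**Figure D4:**
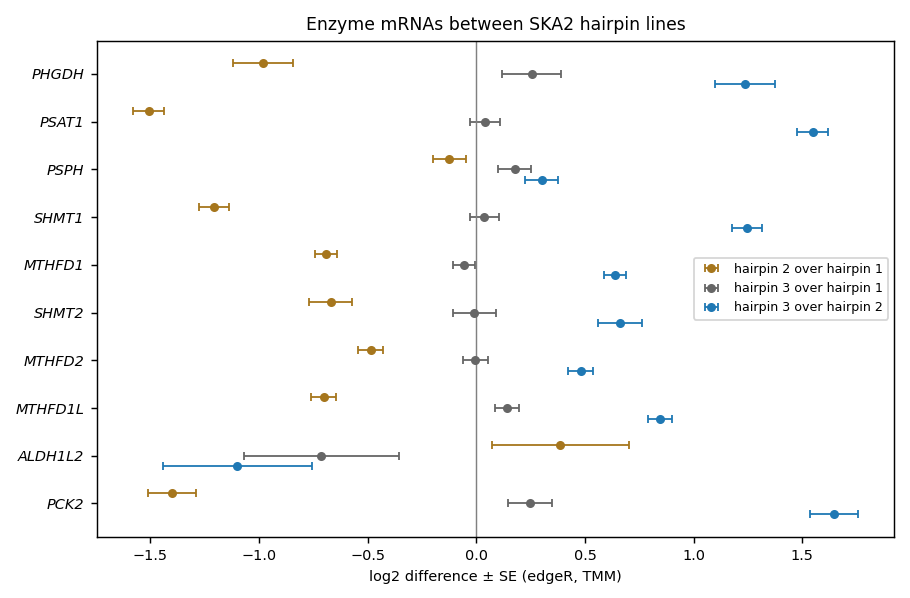
Log2 difference between SKA2 hairpin lines (horizontal axis, edgeR estimate with SE as bars) for each of the 10 enzymes (rows): hairpin 2 over hairpin 1, hairpin 3 over hairpin 1 and hairpin 3 over hairpin 2. The hairpin 3 over hairpin 1 points lie between -0.71 and 0.25, and those that involve hairpin 2 reach -1.51 and 1.65.

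Other genes around these enzymes were taken from 6 lists written from general knowledge of the pathway, with 71 genes, of which 62 were tested. Of these 26, 35 and 23 fell and 17, 12 and 10 rose with hairpins 1, 2 and 3, beside backgrounds of 31.5%, 37.8% and 24.0% lower and 31.5%, 36.6% and 23.6% higher. The median log2 fold change over the 62 was -0.08, -0.36 and -0.07. On TPM, 15 fell and 33 rose with hairpin 1. The background on that scale (pseudocount 1) was 1733 lower and 6462 higher of all 12868 tested genes.

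Of 9 transporters of serine, glycine and neutral amino acids 5, 6 and 6 fell and 2, 1 and 1 rose with hairpins 1, 2 and 3. The background was 31.5%, 37.8% and 24.0% lower and 31.5%, 36.6% and 23.6% higher. The glycine transporter SLC6A9 fell to 3.48 ± 0.215, 1.67 ± 0.498 and 2.61 ± 0.511 CPM, against 24.8 ± 0.835 CPM in the control (SD, n = 3). The neutral amino acid transporter SLC1A4, which carries serine, fell to 17.6 ± 1.10, 5.55 ± 0.408 and 18.5 ± 0.945 CPM, against 79.9 ± 1.82 CPM in the control. Its paralog SLC1A5, the main glutamine carrier of many tumour cells, fell by nearly the same amount with each hairpin (-2.0 ± 0.08, -1.94 ± 0.08 and -1.97 ± 0.08, SE). Adjusted p in edgeR was at most 7.27e-08 for these 3 genes in every comparison. SLC38A1, another neutral amino acid transporter, fell with hairpin 2 (-1.07 ± 0.17, adjusted p = 0.000153), and its values with hairpins 1 and 3 were -0.26 and -0.58. The hairpin 3 call (adjusted p = 0.0168 in edgeR) was lost without the second (-0.49) or the third (-0.45) hairpin 3 library and on TPM (-0.42). The rises, named after their values were seen, were those of SFXN1, the mitochondrial serine transporter, with hairpins 1 (0.60 ± 0.08) and 3 (0.36 ± 0.08), and of its relatives SFXN2 with hairpin 1 (0.38 ± 0.13) and SFXN3 with hairpin 2 (0.46 ± 0.09). SFXN1 fell with hairpin 2 (-0.32 ± 0.08, adjusted p = 0.00331 in edgeR), which turned to 0.55 on TPM. The call of SFXN2 was lost with offsets (0.02) and without the third control library (0.28) or the first (0.37) or the second (0.33) hairpin 1 library.

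Enzymes that use serine and glycine fell in 7, 7 and 5 of 11 cases and rose in 1, 3 and 0. Beside them, 31.5%, 37.8% and 24.0% of all tested genes fell and 31.5%, 36.6% and 23.6% rose. GLDC, the decarboxylase of the glycine cleavage system, fell to 1.20 ± 0.178, 0.263 ± 0.00565 and 1.32 ± 0.242 CPM with hairpins 1, 2 and 3, against 3.62 ± 0.305 CPM in the control (SD, n = 3). AMT, another subunit of that system, fell with hairpins 1 (-0.85 ± 0.21) and 2 (-2.06 ± 0.24). The glycerate kinase GLYCTK fell with all 3 hairpins (-0.78 ± 0.15, -2.03 ± 0.16 and -0.68 ± 0.15, adjusted p = 0.00101, 5.92e-07 and 0.00289 in edgeR). SDSL, a serine dehydratase-like enzyme, fell with hairpins 1 (-1.17 ± 0.20) and 2 (-1.24 ± 0.20). With hairpin 3 the call of AMT (-0.62) was lost without the second (-0.53) or the third (-0.49) control library or the first hairpin 3 library (-0.43). SDSL (-0.32 with hairpin 3) was called without the first control library (-0.49) or the third hairpin 3 library (-0.53).

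The remaining folate genes were mixed, with 4, 6 and 3 of 12 lower and 3, 2 and 2 higher. The background was 31.5%, 37.8% and 24.0% lower and 31.5%, 36.6% and 23.6% higher. Falls with hairpins 1 and 3 were thus near the share of all tested genes. Thymidylate synthase TYMS, which uses methylene-folate for DNA precursors, was at 194 ± 2.23, 63.2 ± 2.68 and 183 ± 8.87 CPM with hairpins 1, 2 and 3, against 225 ± 15.4 CPM in the control (SD, n = 3). With hairpin 2 it fell by 1.83 ± 0.07 on the log2 scale (adjusted p = 2.12e-09 in edgeR). The smaller value with hairpin 1 (-0.21) turned positive on TPM (0.17) and with offsets (0.08), and lost its call without the second (-0.20) or the third (-0.17) control library. MTHFS, the 5-formyltetrahydrofolate cyclo-ligase, fell with hairpin 2 (-1.17 ± 0.14), and FTCD, a histidine-degrading folate enzyme, was at 1.68, 1.01 and 1.23 CPM with the hairpins and 0.770 CPM in the control.

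Purine synthesis genes fell in 4, 7 and 3 of 12 cases and rose in 2, 0 and 2. Among all tested genes 31.5%, 37.8% and 24.0% fell and 31.5%, 36.6% and 23.6% rose. The falls with hairpins 1 and 3 were near that background. IMPDH2, which makes the precursor of guanine nucleotides, fell with hairpins 1 (-0.45 ± 0.12, not called on TPM or with offsets, -0.06 in both) and 2 (-1.04 ± 0.12, adjusted p = 1.21e-05 in edgeR). ATIC, which uses formyl-folate for the last steps of the purine ring, fell with hairpin 2 (-0.90 ± 0.08), and its value of -0.27 with hairpin 1 turned to 0.11 on TPM. PPAT, which starts the pathway, rose with hairpins 1 (0.97 ± 0.19, adjusted p = 0.00125) and 3 (0.76 ± 0.19, adjusted p = 0.00673, and 0.0515 in a fit of those 2 lines alone), and ADSL fell with hairpin 1 (-0.54 ± 0.12). With hairpin 3 ADSL (-0.36) lost its call without the second (-0.35) or the third (-0.25) control library or the first (-0.26) or the second (-0.36) hairpin 3 library. IMPDH2 (-0.37 with hairpin 3) lost its call without the second (-0.34) or the third (-0.26) control library or the first hairpin 3 library (-0.25).

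In the TMM fit the methionine cycle was the list with more rises than falls. Of its 9 tested genes 7, 5 and 3 rose with hairpins 1, 2 and 3, and 1 fell with each. Among all tested genes 31.5%, 36.6% and 23.6% rose and 31.5%, 37.8% and 24.0% fell. On TPM rises outnumbered falls with hairpin 1 over the lists together, and counts by list on TPM are not given here. MAT2A, the S-adenosylmethionine synthetase, rose to 328 ± 5.66, 342 ± 12.2 and 267 ± 12.1 CPM with hairpins 1, 2 and 3, against 221 ± 21.3 CPM in the control (SD, n = 3; adjusted p = 8.38e-05, 1.11e-05 and 0.00905 in edgeR). AHCY, which clears S-adenosylhomocysteine, was the 1 that fell (-0.65 ± 0.07, -0.98 ± 0.07 and -0.62 ± 0.07). The methionine synthase MTR rose with hairpin 1 (0.94 ± 0.20, adjusted p = 0.00189). With hairpins 2 and 3 it was at 0.35 and 0.48 and was called without the first control library (0.58 and 0.71). AHCYL2, a relative of AHCY, rose with hairpin 2 (0.88 ± 0.18), and without the first control library also with hairpins 1 (0.70) and 3 (0.58).

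In glycolysis and the transaminases next to the pathway 5, 8 and 5 of 9 fell and 2, 1 and 2 rose. Beside these stand backgrounds of 31.5%, 37.8% and 24.0% lower and 31.5%, 36.6% and 23.6% higher. The rises in this list include PCK1 with every hairpin. PCK1 had 0 counts in the control and passed the expression filter through the lines where it was high. It had only 4 counts in all with hairpin 2. The cytosolic aspartate aminotransferase GOT1 fell to 78.2 ± 1.72, 41.6 ± 2.85 and 90.6 ± 6.21 CPM with hairpins 1, 2 and 3, against 312 ± 32.4 CPM in the control (SD, n = 3). The mitochondrial alanine aminotransferase GPT2 fell to 60.2 ± 2.31, 34.2 ± 0.845 and 62.9 ± 4.11 CPM, against 176 ± 7.0 CPM in the control. Both kept an adjusted p of at most 3.72e-08 in edgeR, and both were lowest with hairpin 2. The glycolytic enzymes GAPDH (-0.81 ± 0.15, -1.07 ± 0.15 and -0.50 ± 0.15) and ENO1 (-0.66 ± 0.11, -1.08 ± 0.11 and -0.50 ± 0.11) fell by less. The hairpin 3 call of GAPDH was lost without the third control library (-0.38).

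Of 9 regulators linked to the pathway 6, 6 and 7 fell and 2, 3 and 1 rose, with medians of -1.34, -1.02 and -1.32. Over all tested genes 31.5%, 37.8% and 24.0% fell and 31.5%, 36.6% and 23.6% rose. The rises, named after their values were seen, were those of EIF2AK3, EIF2AK4 and NFE2L2. EIF2AK3 rose with hairpins 1 (0.45 ± 0.14) and 2 (1.86 ± 0.14), EIF2AK4 with all 3 (0.64, 0.44 and 0.36, each ± 0.13) and NFE2L2 with hairpin 2 (0.28 ± 0.06, SE). NFE2L2 fell with hairpins 1 (-0.29) and 3 (-0.42). Values of these genes under the alternatives are not given here. TRIB3, a pseudokinase and known ATF4 target, fell to 23.5 ± 1.66, 37.4 ± 1.57 and 18.3 ± 2.82 CPM with hairpins 1, 2 and 3, against 479 ± 64.9 CPM in the control (SD, n = 3). The C/EBP factor CEBPB fell, with log2 fold changes of -2.42 ± 0.09, -2.82 ± 0.09 and -2.65 ± 0.09, and so did CEBPG, a partner of ATF4, with -1.34 ± 0.06, -1.54 ± 0.06 and -1.38 ± 0.06 (SE, adjusted p at most 1.54e-08 in edgeR). The stress factor DDIT3 fell to 36.8 ± 3.19, 80.4 ± 5.04 and 40.8 ± 8.12 CPM, against 163 ± 31.8 CPM in the control. ATF4 itself, named after its values were seen, fell too, with -1.83 ± 0.11, -1.09 ± 0.11 and -1.32 ± 0.11 (220, 368 and 314 CPM with the hairpins and 781 CPM in the control). Between hairpin lines ATF4 rose with hairpin 2 against hairpin 1 by 0.74 ± 0.11, DDIT3 by 1.13 ± 0.16 and TRIB3 by 0.67 ± 0.12 (SE, adjusted p = 0.000134, 0.000103 and 0.000605 in edgeR), where PSAT1, PHGDH and PCK2 fell. CEBPB (-0.40 ± 0.09, adjusted p = 0.00282 in edgeR, not called with offsets, -0.08) and CEBPG (-0.19 ± 0.06, adjusted p = 0.0141) fell in that comparison. There 8 of the 10 members were lower. The call of CEBPG was lost on TPM (-0.13) and without the first (-0.18) or the second (-0.16) library of either line. With hairpin 3 against hairpin 2, DDIT3 fell by 0.98 ± 0.16 and TRIB3 by 1.03 ± 0.12, and ATF4 was at -0.23 ± 0.11 (adjusted p = 0.0847 in edgeR) and was called without the third hairpin 3 library (-0.31). CEBPG rose there by 0.16 ± 0.06 (adjusted p = 0.0354 in edgeR) and turned to -0.12 on TPM. It was not called in most fits that left out 1 hairpin 2 or hairpin 3 library. CEBPB was at 0.17 ± 0.09 (adjusted p = 0.126 in edgeR) and turned to -0.10 on TPM. Any part of these regulators in the enzyme differences was not tested.

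**Figure D5:**
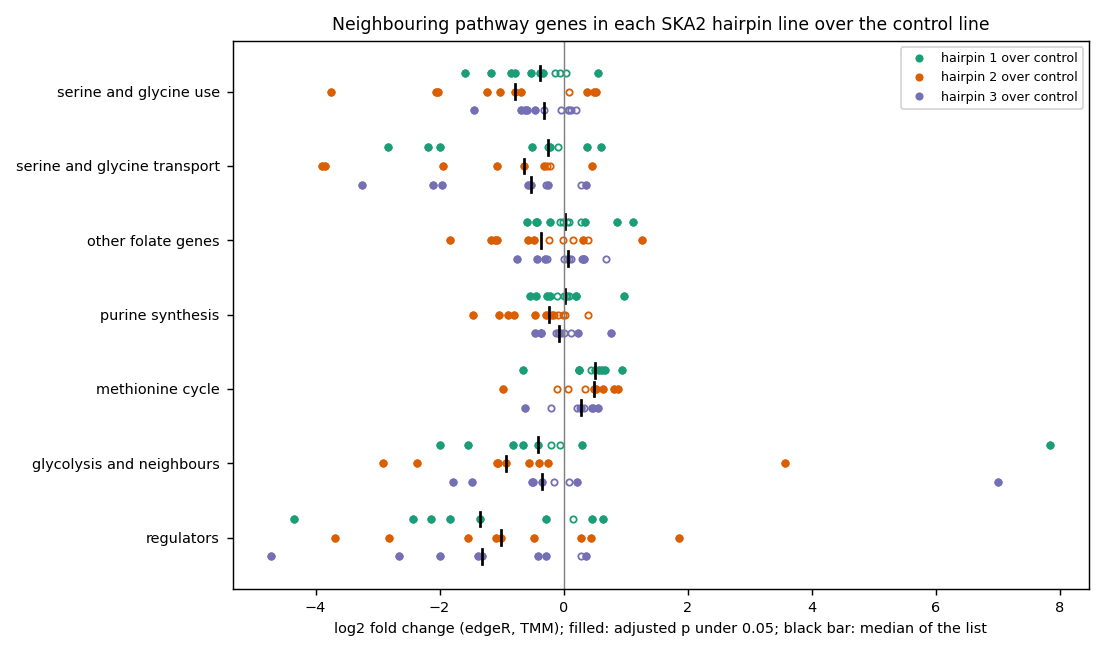
Log2 fold change over the control line (horizontal axis) of the tested genes of 7 lists (rows) with hairpin 1, hairpin 2 and hairpin 3. Filled points passed edgeR's test at an adjusted p under 0.05, black bars are list medians, and the methionine cycle medians (0.51, 0.48 and 0.28) lie above 0 while the regulator medians lie at -1.34, -1.02 and -1.32. The points beyond 3 are PCK1, which was at 0 counts in the control, so its fitted fold depends on the prior count.

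Genes were also ranked by how closely their 12 library values followed a member, as the root mean square difference of log2 CPM after both were centred on the control mean, among 9743 genes of at least 10 CPM. The closest to PSAT1 were TMEM156 (0.163), PLAUR (0.252) and GOT1 (0.257). The closest to MTHFD2 were SERPINB8 (0.0964), EHBP1L1 (0.135) and APOBEC3B (0.136). The closest to PCK2 were MMP1 (0.219), UPP1 (0.325) and BCL2A1 (0.365). PLAUR encodes the urokinase receptor, MMP1 a collagenase and UPP1 uridine phosphorylase, and GOT1 alone is an amino acid enzyme.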

How the data were processed

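Per the labels' protocols, polyadenylated RNA was fragmented, copied from random hexamers and sequenced on a BGISEQ-500, with no step named that marks the strand. Random priming gives a long transcript more reads than a short one. The submitters' processing notes name the tools HISAT, Bowtie2, RSEM and DESeq2 and the build GRCh38.p13, with versions and roles not given in the sources used here. For each gene and library the deposited table holds 3 values, per the file headers: an expected count, FPKM and TPM. The deposited expected counts share ambiguous reads between genes. The deposited FPKM and TPM were corrected by the authors for transcript length. A further 15 columns of the authors' averages were not used. Of the gene identifiers 17084 (98.7%) matched GENCODE v29, which gave positions, lengths and GC content. GENCODE names pseudogenes of MTHFD2 (7), PSAT1 (4), PSPH, SHMT1 and MTHFD1 (1 each), none of them in the table, so reads could be split and these levels are uncertain to that extent.

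Expected counts were rounded and tested with edgeR 4.0.16 (R 4.3.3): expression filter on the 4 lines (12868 of 17303 genes kept), TMM, and 1 quasi-likelihood fit to all 12 libraries with hairpin as the factor (8 residual degrees of freedom, common biological coefficient of variation 0.111). Tests were two-sided over 6 comparisons, with Benjamini-Hochberg adjustment over all tested genes and calls at 0.05. The SE is the absolute log2 fold change divided by the square root of the F statistic, and errors of CPM and TPM are SDs over 3 libraries. Nothing in the labels says that the libraries of a line were separate cultures; p-values then reflect only the library-to-library spread, which may be technical. Groups and replicate numbers came from the titles. Libraries of the control and of hairpin 3 with the same number deviated together (correlations 0.17 to 0.728, against -0.667 to 0.391 between differently numbered libraries of the 2 lines). For the other pairs of lines, correlations between libraries of the same number ranged from -0.247 to 0.061. The replicate block nevertheless grouped libraries by number in all 4 lines.

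The members, lists, tests and alternatives were chosen with earlier results of these data known. Named genes were SKA2, the members, and from each list the up to 4 tested genes of at least 1 CPM with the largest absolute mean change over the 3 hairpins; one gene that this rule names is not reported here. For likeness, the 3 nearest genes of at least 10 CPM were named for PSAT1, MTHFD2 and PCK2. Alternatives were DESeq2 1.42.0, limma 3.58.1 on log2(TPM + 1), log2(TPM + 0.1) and log2(FPKM + 1), no filter on low counts, upper quartile scaling, offsets for length and GC content, only the 2 lines compared, a replicate block and each library left out. The fits were tested on simulated data. RefSeq (GRCh38.p14) gave the promoters of 7 of the 10 members; PSPH, SHMT2 and ALDH1L2 had no entry.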

Additional observations from a re-analysis of the deposited data

Results flagged for a closer look

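These results were singled out because an enzyme differed between SKA2 hairpin lines by the test of the difference itself, while the differences in SKA2 between those lines did not pass that test. With hairpin 2 against hairpin 1 the log2 differences were -0.98 for PHGDH, -1.51 for PSAT1, -1.21 for SHMT1, -0.67 for SHMT2, -0.69 for MTHFD1, -0.49 for MTHFD2, -0.70 for MTHFD1L and -1.40 for PCK2. With hairpin 3 against hairpin 2 they were 1.24 for PHGDH, 1.55 for PSAT1, 0.30 for PSPH, 1.25 for SHMT1, 0.66 for SHMT2, 0.64 for MTHFD1, 0.48 for MTHFD2, 0.84 for MTHFD1L, -1.10 for ALDH1L2 and 1.65 for PCK2. All 18 rest on the same 3 hairpin 2 libraries. Such differences were common among all tested genes. With hairpin 2 against hairpin 1, 29.4% were lower and 28.2% higher, and with hairpin 3 against hairpin 2, 31.9% were lower and 33.4% higher. For SHMT1 and MTHFD1 the hairpin 2 line was also the only line whose libraries lay far below the control. ALDH1L2 went the other way, with 1.15 CPM with hairpin 3 and 2.48 CPM with hairpin 2. The cause of the differences between lines was not tested.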

How the results depend on the processing

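With hairpin 1 the members lower numbered 7 to 9 under every alternative (8 as reported). With hairpin 2 they numbered 9 or 10 (9 as reported) and with hairpin 3 they numbered 8 or 9 (8 as reported). Of all 12868 tested genes 4059, 4862 and 3086 were lower as reported and 1733, 2694 and 2071 on TPM (pseudocount 1). The members were chosen on these contrasts, so nothing is read from their counts. With hairpin 2 against hairpin 1 the count was 8 lower and 0 higher in all alternatives. Between 3165 and 4869 of all tested genes were lower there (3782 as reported). With hairpin 3 against hairpin 1, 0 members were lower and 0 higher as reported. On TPM with either pseudocount 1 was lower, and with length and GC offsets 1 was higher. Over all genes TPM (pseudocount 1) gave 1332 lower and offsets gave 1347 higher. Without the first control and first hairpin 3 libraries 4 members were higher and 1 lower, beside 28.4% higher and 29.1% lower over all genes. Leaving out 1 library at a time gave 0 to 1 members lower and 0 to 3 higher. The fit without the first hairpin 3 library had a background of 21.3% lower and 19.6% higher. Between hairpins 3 and 2 the lower count was 0 to 1 when 1 library was left out. Among other pathway genes, TPM with either pseudocount gave 15 lower and 33 higher with hairpin 1 (26 and 17 as reported). It gave 24 higher with hairpin 2 (12 as reported). A fit of only the control and hairpin 3 gave 12 lower and 4 higher (23 and 10 as reported). Of all 12868 tested genes, TPM (pseudocount 1) gave 1733 lower and 6462 higher with hairpin 1 and 6814 higher with hairpin 2. The fit of only the control and hairpin 3 gave 1852 lower and 1576 higher. With a replicate block the members called stayed at 8, 9 and 8 lower against the control, 8 lower with hairpin 2 against 1, 0 with hairpin 3 against 1, and 9 higher and 1 lower with hairpin 3 against 2. It changed the calls of AHCYL2 with hairpin 1 (0.47), PPAT with hairpin 2 (0.42) and CEBPG with hairpin 3 against hairpin 2 (0.16) only, among the genes named other than EIF2AK3, EIF2AK4 and NFE2L2. Signs turned on TPM for MTHFD1L with hairpin 3 against hairpin 1 (-0.084 and -0.085 for pseudocounts 1 and 0.1), ADSL with hairpin 2 (0.16 with both), ATIC with hairpin 1 (0.11) and hairpin 3 (0.037 and 0.038), SLC38A1 with hairpin 1 (0.15), TYMS with hairpin 1 (0.17), SFXN1 with hairpin 2 (0.55 and 0.56, and 0.198 on FPKM), and with hairpin 3 against hairpin 2 CEBPB (-0.097 and -0.102) and CEBPG (-0.118 and -0.122). With offsets they turned for MTR (-0.46) and PPAT (-0.0042) with hairpin 2, SDSL with hairpin 3 (0.057), CEBPB with hairpin 3 against hairpin 2 (-0.277) and TYMS with hairpin 1 (0.077). Over all genes, TPM moved the share of higher calls to 78.9%, 71.7% and 60.9% with hairpins 1, 2 and 3 (49.98%, 49.2% and 49.6% as reported), to 15.4% (50.2% as reported) with hairpin 3 against 1 and to 30.3% (51.1% as reported) with hairpin 3 against 2. The number of genes called with hairpin 3 was 6122 in the shared fit and 3428 in a fit of 2 lines. Between hairpins 3 and 1 it was 1216 as reported, 331 in a fit of 2 lines, 1971 with DESeq2, 2820 with offsets, 7400 without both libraries that stood apart and 238 to 5261 when 1 library was left out (5261 without the first hairpin 3 library). The causes of these shifts were not tested. ALDH1L2, with 12 to 83 counts per library, is the member that depth limits most.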

Other observations

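PCK1, the cytosolic relative of PCK2, went the other way at a very low level. It was picked out after its values were seen. It had 22, 36 and 28 counts with hairpin 1, 2, 2 and 0 counts with hairpin 2 and 18, 16 and 14 counts with hairpin 3, against 0 counts in each of the 3 control libraries. Taking 3 counts over the control group as the limit that a count of 0 allows, PCK1 was at least 30.8-fold higher with hairpin 1 and at least 16.7-fold higher with hairpin 3. With hairpin 2 its 4 counts in all lie too close to that limit for a fold. Even with hairpin 1 it reached only 1.85 ± 0.454 CPM (SD, n = 3), beside 20.5 ± 1.74 CPM of PCK2.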
